A study of Mus musculus with 6 samples.

Results

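H3K4me3 peaks that lay inside the bodies of protein-coding genes, away from both gene ends, were described in Lgr5+ progenitor cells of the mouse cochlea. Overlapping peaks of 4 lists were merged into regions where they shared at least 1 bp. A region was taken when it held a peak in 2 or more lists, overlapped a protein-coding gene and lay more than 1 kb from the start and the end of every protein-coding gene. This gave 2166 regions, called inner regions here, of 12441 regions with a peak in 2 or more lists and of 24104 merged regions in all. A further 9653 of the regions in 2 or more lists lay at gene ends and 622 lay between genes, while 3278 regions inside genes had a peak in 1 list and were not taken. The regions were thus chosen by the presence of peaks in these same lists, so counts of regions by library and by group are descriptions and carry no test.

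The groups were cells exposed to neomycin for 12 h and untreated cells, with 2 H3K4me3 libraries each. Neomycin is an aminoglycoside antibiotic that kills the sensory hair cells of the inner ear. Both groups came from Lgr5-EGFP-creERT2 mice of the C57BL/6 strain, of either sex and between postnatal days 0 and 3, whose cochleae were cultured with B27, N2, IGF-1, heparin sulfate, bFGF and EGF and whose dissociated cells were sorted on the GFP channel. The reporter allele therefore decides which cells were taken, and nothing in the labels states whether replicates are different cultures or how many animals were pooled, so that p-values measure only the spread between these libraries. The neomycin lists held 14203 and 11545 peaks, against 15938 and 10520 peaks for the untreated pair (replicate 1 first). The sequencing depth is unknown, because the lists give no read totals. The deposited names of both untreated lists give H3K4me2, whereas the labels give H3K4me3 and a single antibody for all libraries, so the mark in the untreated lists is uncertain to that extent. The lists also differ in the shortest peak they hold, which was 48 and 110 bp with neomycin, against 187 and 234 bp untreated. Peaks at gene ends were checked against cell type markers. All 9 markers of supporting and progenitor cells had an end peak in every library, and none of the 3 markers of blood and macrophages had one in any. Of 6 hair cell markers, 2 and 1 had an end peak in the neomycin libraries, against 4 and 1 in the untreated libraries. Of 4 mesenchyme markers, 0 and 0 had one in the neomycin libraries, against 2 and 3 in the untreated libraries. Of 3 glial markers, 1 and 1 had one with neomycin, against 2 and 1 untreated. Of 3 neuronal markers, 0 and 1 had one with neomycin, against 2 and 1 untreated. The part of these other cell types in the differences between groups given here was not tested.

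H3K4me3 is trimethylation of lysine 4 of histone H3, laid down by SET1 and MLL family complexes. It is concentrated on the nucleosomes around transcription starts, most of all where the DNA is rich in unmethylated CpG, which the CXXC domains of those complexes bind. Many genes have more than one promoter, and an inner promoter carries the mark inside the span of the longer transcript, so that a peak far from both gene ends often belongs to a second start. In the cochlea, Lgr5 marks supporting cells that answer to Wnt signals and can divide and form hair cells in the newborn animal.

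Windows of 250 bases before an internal start are shown for 8 genes on whose inner regions the results turn. They are read from RefSeq (build GRCm38.p6) on the strand of the gene, 5′ to 3′, and the capitals mark CpG dinucleotides. The inner regions beside these starts held peaks in the neomycin libraries alone at Cdkn1a and Rubcn, in the untreated libraries alone at Tmem248 and Nt5c2, and in all 4 libraries at Axin2 and Ptch1. Prox1 and Pax2 are transcription factors of the developing cochlea, with peaks in 3 libraries.
Cdkn1a (chr17:29093519-29093768, + strand): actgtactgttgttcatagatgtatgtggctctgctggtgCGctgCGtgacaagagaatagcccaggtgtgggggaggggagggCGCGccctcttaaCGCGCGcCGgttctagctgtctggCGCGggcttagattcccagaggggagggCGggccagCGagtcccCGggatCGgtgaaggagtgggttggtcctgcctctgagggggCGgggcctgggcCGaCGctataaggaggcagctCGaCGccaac
Rubcn (chr16:32868367-32868616, - strand): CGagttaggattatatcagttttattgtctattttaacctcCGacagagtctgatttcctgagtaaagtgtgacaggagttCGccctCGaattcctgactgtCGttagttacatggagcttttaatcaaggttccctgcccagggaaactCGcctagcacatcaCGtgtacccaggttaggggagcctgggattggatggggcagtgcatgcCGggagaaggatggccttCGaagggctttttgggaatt
Tmem248 (chr5:130222085-130222334, + strand): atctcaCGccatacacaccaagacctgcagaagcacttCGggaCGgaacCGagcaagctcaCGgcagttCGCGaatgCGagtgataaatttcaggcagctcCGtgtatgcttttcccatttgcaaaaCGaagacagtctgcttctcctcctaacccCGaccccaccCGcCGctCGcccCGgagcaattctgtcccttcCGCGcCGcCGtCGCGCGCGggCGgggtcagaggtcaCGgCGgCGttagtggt
Nt5c2 (chr19:46962309-46962558, - strand): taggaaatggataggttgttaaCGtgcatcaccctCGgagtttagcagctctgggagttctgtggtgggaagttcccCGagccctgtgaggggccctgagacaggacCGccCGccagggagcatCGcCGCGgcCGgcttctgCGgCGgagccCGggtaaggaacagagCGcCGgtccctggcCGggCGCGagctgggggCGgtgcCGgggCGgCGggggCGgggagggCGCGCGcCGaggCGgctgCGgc
Axin2 (chr11:108920099-108920348, + strand): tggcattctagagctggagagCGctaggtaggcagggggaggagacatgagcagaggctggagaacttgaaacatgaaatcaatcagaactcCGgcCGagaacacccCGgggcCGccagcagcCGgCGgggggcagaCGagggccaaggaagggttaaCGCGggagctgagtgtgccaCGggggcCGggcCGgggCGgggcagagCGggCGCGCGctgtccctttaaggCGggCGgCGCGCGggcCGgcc
Ptch1 (chr13:63565736-63565985, - strand): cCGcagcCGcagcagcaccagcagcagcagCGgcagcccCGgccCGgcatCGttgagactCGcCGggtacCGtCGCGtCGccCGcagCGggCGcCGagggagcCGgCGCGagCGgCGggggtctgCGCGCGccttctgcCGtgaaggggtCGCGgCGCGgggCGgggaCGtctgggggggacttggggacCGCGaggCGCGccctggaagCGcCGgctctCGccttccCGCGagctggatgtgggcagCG
Prox1 (chr1:190169516-190169765, - strand): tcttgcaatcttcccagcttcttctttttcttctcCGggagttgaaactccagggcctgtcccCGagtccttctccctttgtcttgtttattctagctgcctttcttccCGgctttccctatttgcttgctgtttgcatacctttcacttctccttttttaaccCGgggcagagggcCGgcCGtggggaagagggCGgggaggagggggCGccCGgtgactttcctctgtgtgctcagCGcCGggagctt
Pax2 (chr19:44756656-44756905, + strand): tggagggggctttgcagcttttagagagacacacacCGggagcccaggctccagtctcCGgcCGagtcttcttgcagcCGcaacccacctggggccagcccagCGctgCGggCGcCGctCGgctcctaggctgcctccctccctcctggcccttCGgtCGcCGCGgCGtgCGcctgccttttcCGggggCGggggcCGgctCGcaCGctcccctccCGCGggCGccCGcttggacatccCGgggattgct
The windows of Ptch1 and Tmem248 held 41 and 27 CpG dinucleotides, and those of Rubcn and Prox1 held 9 and 11. The ratio of observed to expected CpG was 1.08 at Ptch1, 1.19 at Tmem248, 0.909 at Nt5c2, 0.860 at Axin2, 0.771 at Cdkn1a, 0.761 at Pax2, 0.621 at Rubcn and 0.563 at Prox1. Both untreated-only windows had a higher ratio than both neomycin-only windows, as a description of 4 windows picked for display.

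Of the 2166 inner regions, 1254 (57.9%) held a peak in neomycin replicate 1 and 1229 (56.7%) in neomycin replicate 2, against 1896 (87.5%) in untreated replicate 1 and 1527 (70.5%) in untreated replicate 2. Both untreated libraries marked more of them than either neomycin library. The same order held at the 7820 starts at gene ends with a region in 2 or more lists within 1 kb. A peak lay within 1 kb of 71.9% and 69.9% of those starts in the neomycin libraries, against 94.3% and 78.9% in the untreated libraries. The order was thus not particular to inner regions. A peak was present in both neomycin libraries and neither untreated library at 140 inner regions (6.46%), where the same held for 5.02% of all regions in 2 or more lists. The opposite pattern, both untreated libraries and neither neomycin library, was found at 424 inner regions (19.6%), beside 17.2% of all such regions. All 4 libraries marked 426 inner regions (19.7%), beside 22.5% of all such regions. At gene ends, 4.39% of regions were marked by neomycin alone, 16.3% by untreated alone and 23.4% by all 4. The 3 shares therefore lay near those of all regions, with somewhat fewer inner regions marked by all 4. Single libraries weigh on these counts. Without untreated replicate 1 the neomycin-only count was 295, and without neomycin replicate 1 or 2 the untreated-only count was 717 or 695. With gaps of up to 0.5 kb bridged before merging, the counts were 90 neomycin-only and 265 untreated-only regions.

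**Figure D1:**
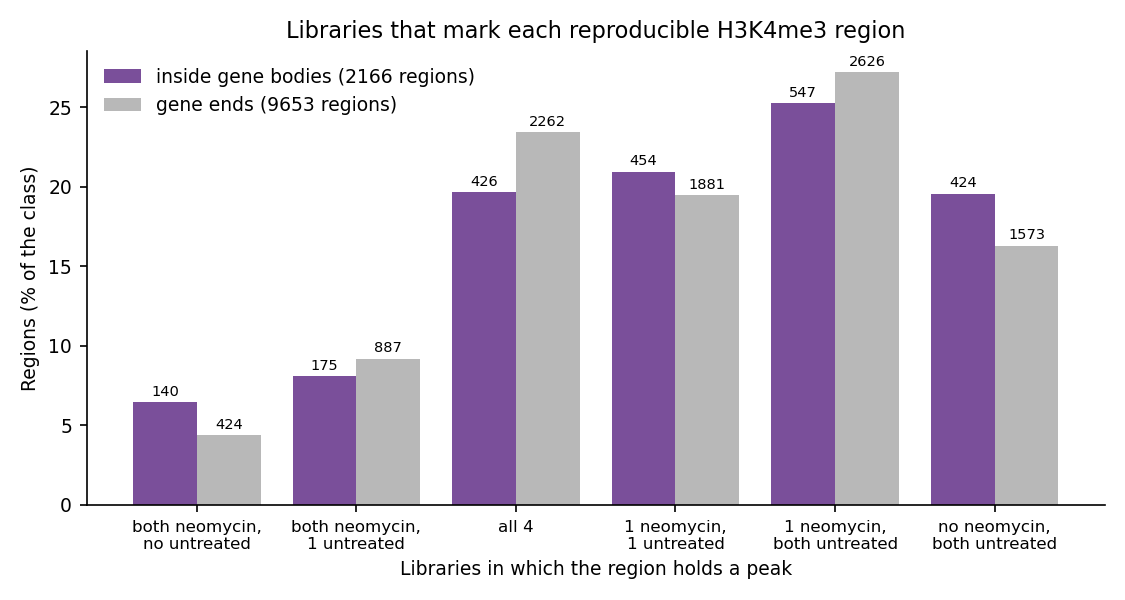
Share of regions (y axis, % of the class) by the libraries that hold a peak (x axis), for 2166 inner regions and 9653 regions at gene ends; the number above each bar is the count of regions. Untreated-only inner regions (424) outnumber neomycin-only ones (140), and the profile across libraries is much the same at gene ends.

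A mean of 11.9 ± 0.699% of the peaks of a neomycin list lay in inner regions, against 14.3 ± 1.84% of the peaks of an untreated list (SD, n = 2 each). Per library this was 11.4% and 12.4% with neomycin, against 12.97% and 15.6% untreated. Both neomycin libraries were below both untreated libraries by this measure. The difference was -2.35 percentage points, given as a description because the regions were chosen on the peaks of these lists. Without untreated replicate 2 the difference was 1.57 points in the opposite direction.

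Most inner regions lay within 1 kb of a transcription start that RefSeq places inside the gene. Starts could be looked up for the 2080 inner regions outside chromosome 18. Of these, 1185 (57.0%) lay within 1 kb of a start of their own host gene, 55 (2.64%) lay within 1 kb of another gene's start only, each time a long non-coding RNA, and 840 (40.4%) had no listed start that near. The table of starts is not complete: among the 840, the host of 354 has no start listed, and among the 1705 inner regions whose host has one, 69.5% lay within 1 kb of it. An own start was near 43.8% of neomycin-only, 52.0% of untreated-only and 63.5% of all-4 inner regions. It was near 53.2% of regions with a peak in 1 library of each group. With 1 neomycin and both untreated libraries the share was 60.4%, and with both neomycin and 1 untreated library 63.5%. Regions marked by a single group were thus less often at a listed start than those marked throughout. The same held for regions marked by 1 library of each group, so the lower share was not particular to single-group regions. Some neomycin-only regions have a very high pileup, described further on, and none of these had a listed own start within 1 kb. These shares describe these regions only.

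Around the start, the midpoints of inner regions lay mostly on the transcribed side. The rule takes out regions within 1 kb of a gene end, so for starts near a 5′ end part of the upstream side was closed in advance. How much of the shift comes from the rule was not tested. The midpoint lay downstream of the nearest start at 989 of the 1240 regions with a start within 1 kb (79.8%), by a median of 242 bp over all 1240, and 379 regions covered the start position itself. Along the host gene, most lay in its first part. Of 1687 inner regions in 1 gene of known strand, 1355 (80.3%) were nearer its 5′ end than its 3′ end, and the median position was 17.1% of the way from 5′ end to 3′ end. A distance of 3 kb or less separated 40.9% from the 5′ end and 5.63% from the 3′ end. The rule itself set the nearest limit: the closest inner region was 1001 bp from a gene end, 108 lay within 1.1 kb of one, and 138 regions in 2 or more lists stood just outside, 0.9 to 1 kb from an end.

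**Figure D2:**
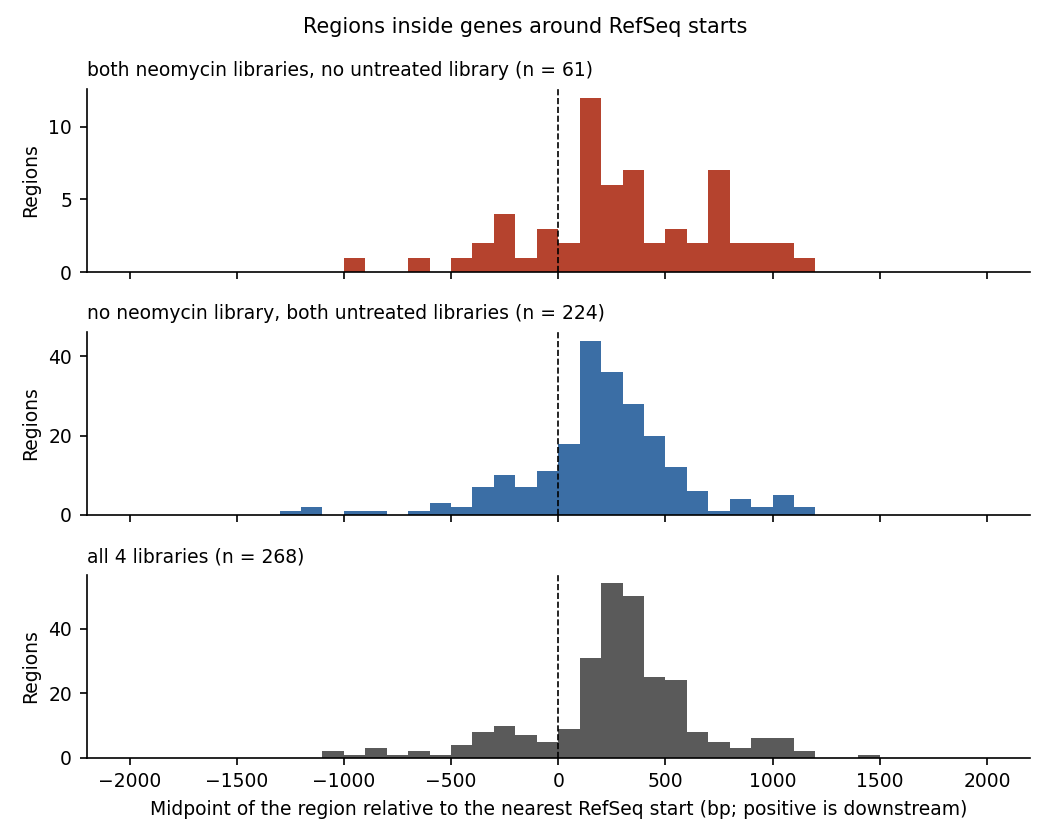
Distance of the midpoint of an inner region from the nearest RefSeq start (x axis, bp, positive downstream) as counts of regions in bins (y axis, separate scales), for regions within 1 kb of a start. In all 3 panels, neomycin-only, untreated-only and all-4 regions, most midpoints fall on the downstream side; over all patterns 79.8% do. Near a 5′ end the rule on gene ends takes out part of the upstream side.

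Turned round, 1126 of 3881 internal starts of protein-coding genes had an inner region within 1 kb, a share of 29%. A peak of any kind lay within 1 kb of 24.8% and 24.2% of these starts in the neomycin libraries, against 35.4% and 27.4% in the untreated libraries. The means were 24.5 ± 0.455% with neomycin and 31.4 ± 5.65% untreated (SD, n = 2 each), and the two-sided exact permutation test gave p = 0.333, the smallest p that 2 against 2 libraries can give. Over all 32619 starts of the table the shares were 25.1% and 24.3% with neomycin, against 34.2% and 26.2% untreated. Internal starts thus followed the shares of all starts, in which untreated replicate 2 lay nearer the neomycin libraries than its own partner.

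CpG content separated marked from unmarked internal starts. It was measured in the 300-base RefSeq window of each start as the observed over the expected number of CpG dinucleotides, a property of the genome that the choice of regions did not use. The median was 0.799 at the 1126 internal starts with an inner region and 0.245 at the 2225 internal starts with no peak in any library. At gene ends it was 0.820 for 7820 starts with a reproducible region and 0.209 for 7374 starts with no peak. A ratio of 0.6 or more was found at 79.8% of internal starts with an inner region, at 8.90% of internal starts with no peak and at 84.5% of gene-end starts with a region. Library by library, the median at internal starts with a peak was 0.786 and 0.778 in the neomycin libraries, against 0.781 and 0.799 in the untreated libraries. The 4 libraries thus marked internal starts of nearly the same CpG content. Within each library, internal starts with a peak exceeded internal starts without one by a mean of 0.499 ± 0.0179 (SD, n = 4, higher in 4 of 4 libraries). The difference between internal and gene-end starts with a peak was -0.0313 ± 0.00622 (SD, n = 4, lower at internal starts in 4 of 4). A two-sided exact sign-flip permutation test over the libraries gave p = 0.125 for both, the smallest that 4 libraries allow, and the libraries share most of their starts and are not independent in this measure.

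**Figure D3:**
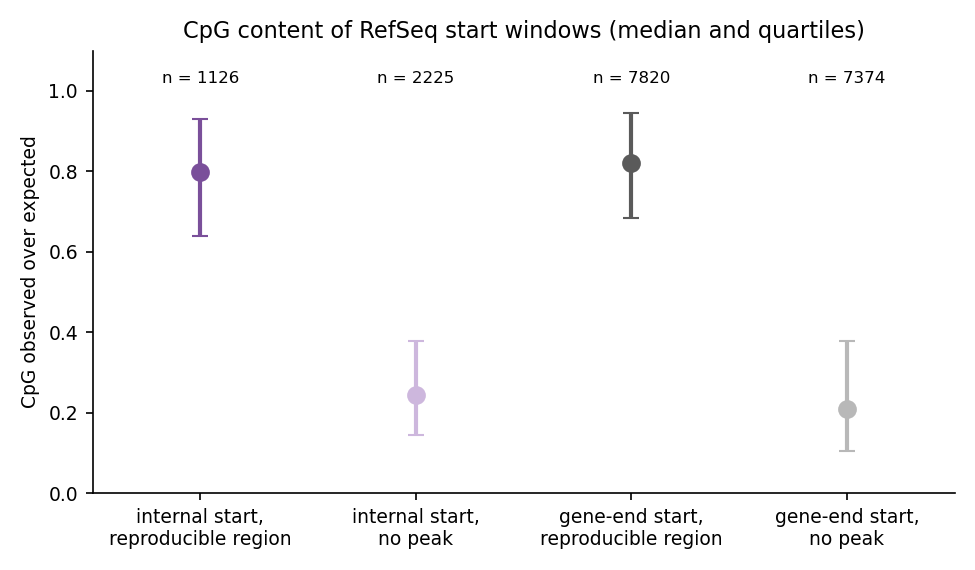
Observed over expected CpG (y axis) in the 300-base window of RefSeq starts; points are medians and bars span the quartiles over starts. Internal starts with an inner region (0.799) lie near gene-end starts with a region (0.820), and both lie well above starts with no peak (0.245 and 0.209).

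Short promoter motifs were searched on both strands of the same windows, and GGGCGG and TGACGTCA each contain a CpG, so they are not independent of the ratio above. GGGCGG, the GC box bound by Sp1, was present at 71.9% of internal starts with an inner region, at 18.1% of those with no peak and at 35.9% of all 32619 starts of the table. The TATA box TATAAA was present at 4.80%, 15.0% and 13.7% of the same sets. CCAAT was found at 31.7%, 36.9% and 37.6%, and the cyclic AMP response element TGACGTCA at 2.22%, 1.21% and 1.80%. At gene-end starts with a region, GGGCGG was present at 72.5%, TATAAA at 5.27%, CCAAT at 36.5% and TGACGTCA at 3.49%. Marked starts inside genes and at gene ends were thus alike in the shares of GC and TATA boxes.

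The 2166 inner regions fell in 1689 host genes, 7.81% of 21631 protein-coding genes. Of the hosts, 1334 held 1 inner region, 272 held 2 and 83 held 3 or more. Hosts were long, with a median span of 52.1 kb, against 17.3 kb for all protein-coding genes and 23.1 kb for genes with a peak at an end and no inner region. The part of gene span in these counts was not tested. For 892 hosts (52.8%) no library had a peak within 1 kb of either gene end, so that inner peaks were found without a marked end. The same share over all protein-coding genes was not counted for the 4 libraries together, so the 52.8% has no background here. Per library the shares can be compared. An end peak was found at 27.9% and 27.5% of hosts in the neomycin libraries, against 40.1% and 31.0% in the untreated libraries. Over all protein-coding genes the shares were 33.1% and 32.2% with neomycin, against 45.4% and 34.7% untreated. Hosts were thus below all genes by this measure in each of the 4 libraries.

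Inner and outer starts of the same gene could be set side by side in 360 hosts that list a start of each kind; a further 623 hosts with an inner region at an own start list internal starts only. In 134 of the 360 no library marked the outer start, and in 25 both starts were marked in all 4 libraries. Only the inner start was marked in 35.0% of the 360 in each neomycin library, against 39.7% and 36.9% in the untreated libraries. Both starts were marked in 27.8% and 26.4% with neomycin, against 48.6% and 36.1% untreated. Only the outer start was marked in 10.8% and 14.4% with neomycin, against 7.78% and 11.9% untreated. The inner start was chosen for being marked, more often by the untreated libraries, so these shares are descriptions. A full exchange of start between the groups was rare. The inner start was marked by neomycin alone and the outer start by untreated alone in 2 genes, Btbd3 and Tcaf1, and the reverse was found in 1 gene, Dcun1d5, all named after their values were seen.

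A pattern at a single region can hide a neighbouring peak of the other group, so the distance to the nearest such peak was measured. Of the 140 neomycin-only inner regions, 86 (61.4%) had an untreated peak within 1 kb and 39 (27.9%) had none within 10 kb. Of the 424 untreated-only inner regions, 170 (40.1%) had a neomycin peak within 1 kb and 203 (47.9%) had none within 10 kb. The median distance was 0.469 kb for neomycin-only and 6.70 kb for untreated-only regions. At gene ends the shares with a peak of the other group within 1 kb were 61.6% of 424 neomycin-only and 46.0% of 1573 untreated-only regions, and those with none within 10 kb were 30.2% and 46.2%. Most neomycin-only regions therefore lay within 1 kb of an untreated peak, inside genes and at gene ends alike.

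**Figure D4:**
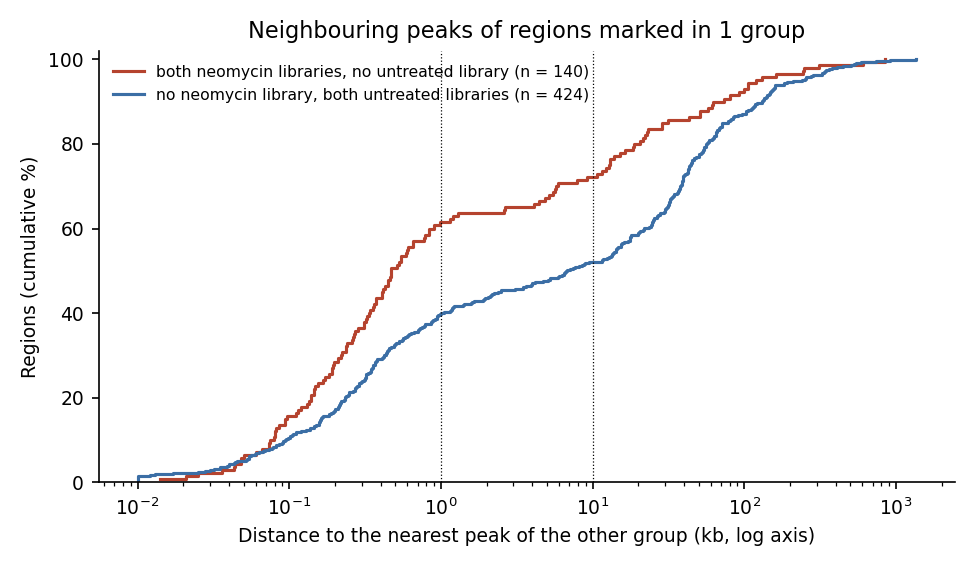
Cumulative share of regions (y axis, %) by distance to the nearest peak of the other group (x axis, kb, log axis; distances under 0.01 kb are drawn at 0.01), for 140 neomycin-only and 424 untreated-only inner regions; dotted lines stand at 1 and 10 kb. The neomycin-only curve is higher throughout most of the range, with 61.4% within 1 kb against 40.1% for untreated-only regions.

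Regions at an own start with no peak of the other group within 10 kb were then taken, leaving out regions of very high pileup described further on. They were 13 of 60 neomycin-only and 110 of 212 untreated-only regions at an own start. Over all regions in 2 or more lists, 32.9% of 624 neomycin-only and 47.3% of 2136 untreated-only regions had no such peak within 10 kb. The lower share of neomycin-only regions was thus also seen over all regions. The limits set for these own-start regions were chosen after the values had been seen. Among the key genes, Cdkn1a was the one whose neomycin-only region met these limits. It encodes the cyclin-dependent kinase inhibitor p21, a target of p53 that arrests the cell cycle. Its inner region at chr17:29093826-29094079 lay 57 bp from the start whose window is shown above, and its peaks spanned 179 and 225 bp in the neomycin libraries, with none in the untreated libraries. Untreated peaks came no nearer than 60.8 kb in replicate 1 and 86.0 kb in replicate 2. A second inner region of the gene at chr17:29095311-29095516 had 95 and 142 bp in the neomycin libraries and none in the untreated libraries. The pileup at the first region, as the authors' peak caller gave it, was 7 and 12 in the neomycin libraries, and the fold enrichment over local background was 5.90 and 7.09. These are ordinary heights for inner regions, whose median pileup was 7 and 11 in those libraries. No library had a peak at either end of the Cdkn1a gene as RefSeq spans it.

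The other isolated neomycin-only starts named by rank included Sorbs2, Dock9, Tbc1d14, Tcaf1 and Ift74. Sorbs2, an adaptor of the actin cytoskeleton, had 136 and 144 bp in the neomycin libraries and its nearest untreated peak was 246 kb away in both libraries. Dock9, an exchange factor for Cdc42, had 79 and 181 bp, with untreated peaks 98.8 and 98.7 kb away, and its outer start was marked in all 4 libraries. Ift74, a subunit of the intraflagellar transport complex of cilia, had 116 and 165 bp, with untreated peaks 11.4 and 11.5 kb away. Rubcn, an inhibitor of autophagosome maturation, had 134 and 121 bp in the neomycin libraries, 98 bp from its start, and its nearest untreated peaks were 9.17 and 9.11 kb away. Its outer start was marked in all 4 libraries. Slc27a1, a fatty acid transporter, had 98 and 286 bp with neomycin, and an untreated peak lay within 0.987 kb in replicate 1. Tenm4 likewise had 177 and 152 bp with neomycin and untreated peaks 0.591 and 0.548 kb away. Tenm4 thus had untreated peaks close beside the neomycin ones, unlike Sorbs2 and Dock9.

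Lengths at isolated untreated-only starts are read against the lists, in which the median peak of an inner region was 76 and 149 bp with neomycin, against 348.5 bp in each untreated library. Ppm1b, a protein phosphatase of the stress-kinase pathways, had no neomycin peak and 847 and 736 bp in the untreated libraries at chr17:84958057-84958903, with neomycin peaks 132 and 131 kb away. Tmem248, a membrane protein gene, had no neomycin peak and 666 and 343 bp untreated over its start, with neomycin peaks 32.1 and 34.4 kb away. Pileup in the untreated libraries was 21 and 14 at Ppm1b and 19 and 17 at Tmem248, where the median over inner regions was 14 and 11. Cenpj, a centriole assembly factor, had 328 and 282 bp untreated and neomycin peaks 96.1 kb away in both libraries. Unc5a, a netrin receptor, had 459 and 425 bp untreated with neomycin peaks 150 and 156 kb away. Ptbp2, a splicing regulator, had 497 and 630 bp untreated with the nearest neomycin peaks 544 and 1388 kb away. Tyro3, a receptor tyrosine kinase, had 478 and 588 bp, and Hmox2, a heme oxygenase, had 215 and 242 bp, in the untreated libraries. At none of these did either neomycin library have a peak in the region. Nt5c2, a cytosolic nucleotidase, was untreated-only with 316 and 299 bp, but neomycin replicate 2 had a peak 0.270 kb away, so its pattern depends on where the region ends. Fth1, the ferritin heavy chain, was of the same kind, with 251 and 267 bp untreated and a peak of neomycin replicate 1 only 0.078 kb away.

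Inner regions marked in all 4 libraries included the most extended ones. Ptch1, the Hedgehog receptor, held the longest inner region of all at 3057 bp (chr13:63563128-63566184), with 240 and 978 bp of peak in the neomycin libraries, against 2937 and 1933 bp in the untreated libraries. It covers the start whose window, the densest in CpG of those shown, is printed above. E2f3, a transcription factor of the G1 to S transition, had 179 and 319 bp with neomycin, against 1102 and 1008 bp untreated. Nasp, a histone chaperone, had 145 and 157 bp with neomycin, against 512 and 573 bp untreated. Both neomycin lengths were below both untreated lengths at these 3 regions, as at 361 of the 426 all-4 inner regions and at 86.8% of all 2796 regions with a peak in all 4 libraries. Longer untreated peaks were thus general in these lists.

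Length was tested in the regions with a peak in all 4 libraries, the only ones with a value in each. The summed peak length in the 426 all-4 inner regions had a median of 107 and 204.5 bp in the neomycin libraries, against 534.5 and 462.5 bp in the untreated libraries. At gene ends the medians were 111 and 189 bp with neomycin, against 485 and 435 bp untreated. The lowest value a list allows was reached by 51 and 40 of the 426 with neomycin, against 10 and 19 untreated. After log2 lengths were centred on each library's median over 2796 regions, limma called 0 inner regions longer and 0 shorter with neomycin at a Benjamini-Hochberg adjusted p of 0.05, where 0% of all 2796 regions were called in either direction. The smallest adjusted p was 0.303, and 45 inner regions and 287 of all regions had an unadjusted p under 0.05. The median log2 difference was -0.03 for inner regions and 0.04 for all regions. Without centring, 182 inner regions and 1074 of all regions were called shorter with neomycin and 0 were called longer. Leaving out neomycin replicate 1 gave 23 longer and 16 shorter inner regions, and leaving out neomycin replicate 2 gave 26 longer and 37 shorter, with the lone neomycin library assumed to vary like the untreated pair. Leaving out either untreated library gave 0.

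Single peaks inside genes were as long as those at gene ends. The median length of a peak in an inner region was 76 and 149 bp in the neomycin libraries, and 348.5 bp in each untreated library. At gene ends it was 77 and 146 bp with neomycin, and 356 and 355 bp untreated. The mean difference was -3 ± 4.92 bp (SD, n = 4 libraries, lower in 3 of 4), with p = 0.375 in a two-sided exact sign-flip permutation test whose smallest p is 0.125, and its sign turned under 4 alternatives of processing and without either untreated library. Fold enrichment differed by -0.295 ± 0.306 (SD, n = 4, lower in 3 of 4, p = 0.25 in the same exact test), and the median pileup was the same in both places in each library.

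A gene-by-gene view followed lists of pathways and cell types, with the 7.81% of all genes that held an inner region as the background. Among all inner regions, 6.46% were neomycin-only, 19.6% untreated-only and 19.7% in all 4 libraries. The pattern counts of each list are to be read beside these shares, and rest on few regions. Of 42 genes of the p53 and apoptosis list, 8 (19.0%) held 11 inner regions, 3 of them neomycin-only, 2 untreated-only and 2 in all 4 libraries. The 3 neomycin-only regions were the 2 neighbouring ones of Cdkn1a and 1 of Bbc3 that lay close to untreated peaks. The list's genes had a median span of 16.5 kb, against 17.3 kb for all genes, and the part of span in the share was not tested. The other lists given below were above 7.81% as well, except that of blood, macrophage and endothelial genes. Bbc3, which encodes the apoptosis activator PUMA, held 3 inner regions of different patterns. The first, at chr7:16309658-16310051, had 59 and 110 bp with neomycin, against 335 and 238 bp untreated. The second, at chr7:16310221-16310633 over the next start, had 136 and 413 bp with neomycin and none untreated, yet untreated peaks ended 0.229 and 0.209 kb away. The third had none with neomycin and 204 and 346 bp untreated. The gene was thus marked in both groups, with the pieces divided differently. Mdm4, an inhibitor of p53, had 124 and 119 bp with neomycin, against 261 and 277 bp untreated. Bcl2l11, the apoptosis activator BIM, had 132 and 110 bp with neomycin, against 618 bp and no peak untreated.

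In the Wnt list, 12 of 58 genes (20.7%; median span 30.6 kb) held 14 inner regions, 1 neomycin-only, 2 untreated-only and 3 in all 4 libraries. Axin2, a scaffold of the beta-catenin destruction complex and itself a Wnt target, had 290 and 358 bp with neomycin, against 1099 and 1375 bp untreated, at chr11:108920465-108922234. This region lay 116 bp from the start shown above, and no library had a peak at either end of the gene as RefSeq spans it. Tcf7l2, a transcription factor of the pathway, had 65 and 147 bp with neomycin, against 272 and 369 bp untreated. Wnt5a, a ligand, had 122 and 447 bp with neomycin, against 398 and 253 bp untreated, so that its groups overlap. Axin1, a paralogue of Axin2, had no peak and 178 bp with neomycin, against 517 and 536 bp untreated. Fzd7, a receptor named after its values were seen, was the list's neomycin-only case with 70 and 593 bp, and an untreated peak lay 0.894 kb away.

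In the Notch list, 7 of 33 genes (21.2%; median span 24.3 kb) held 11 inner regions, 2 neomycin-only, 0 untreated-only and 2 in all 4. Among ligands, Dll1 had a region over its start with 60 and 115 bp with neomycin and none untreated, with untreated peaks 0.372 and 0.702 kb away, and a second with 89 bp in neomycin replicate 1, against 635 and 358 bp untreated. Jag1 had 108 bp in neomycin replicate 1 and none in replicate 2, against 260 and 596 bp untreated. The receptor Notch1 was neomycin-only with 73 and 287 bp, 1.59 kb inside its start, with untreated peaks 0.679 and 0.468 kb away. Rbpj, the DNA-binding partner of the Notch intracellular domain, was picked after its values were seen and held 3 inner regions 33 kb or more inside the gene, which had peaks in neomycin replicate 1 and none in neomycin replicate 2. The middle one, at chr5:53589601-53590192, had 111 bp in neomycin replicate 1, against 592 and 450 bp untreated, and the nearest peak of neomycin replicate 2 was 220 kb away. Of the coactivator and inhibitor genes, Maml3 had 111 and 513 bp with neomycin, against 1282 and 315 bp untreated, and Numbl had 70 and 129 bp with neomycin, against 290 and 286 bp untreated. Neomycin-only inner regions of the Notch list thus lay beside untreated peaks, within 1 kb of one.

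The FGF, BMP and Hedgehog list had 10 of 57 genes (17.5%; median span 46.2 kb) with 18 inner regions, 0 neomycin-only, 3 untreated-only and 4 in all 4. Besides Ptch1, Tgfb2 had 92 and 200 bp with neomycin, against 829 and 526 bp untreated, and Fgf9, a ligand, had 137 and 224 bp with neomycin, against 507 and 698 bp untreated. Smad7, an inhibitor of TGF-beta and BMP signalling, had 48 and 422 bp with neomycin, against 708 and 716 bp untreated. Of 38 supporting and progenitor cell genes, 10 (26.3%; median span 11.1 kb) held 21 inner regions, 1 neomycin-only, 5 untreated-only and 2 in all 4. Gata3, a transcription factor needed for cochlear development, held 8 of them, and none had a peak in both neomycin libraries. Neomycin peaks nevertheless lay 0.911, 1.88, 0.069 and 0.29 kb from its untreated-only regions, and the gene had an end peak in some library. Its untreated-only regions thus lay close beside neomycin peaks. Prox1 had none in neomycin replicate 1 and 271 bp in replicate 2, against 381 and 435 bp untreated. Pax2 had none in neomycin replicate 1 and 517 bp in replicate 2, against 1017 and 968 bp untreated, and its gene ends had no peak in any library. Eya4, a transcriptional coactivator, had no peak and 110 bp with neomycin, against 655 and 299 bp untreated. No inner region was found in Lgr5, Sox2, Sox9, Fgfr3, Hes5 or Cdkn1b, which had end peaks in all 4 libraries. Of 36 hair cell genes, 4 (11.1%; median span 23.8 kb) held 6 inner regions, in Cdh23, Dll1, Espn and Pcdh15, and 0 of these had a peak in all 4 libraries.

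**Figure D5:**
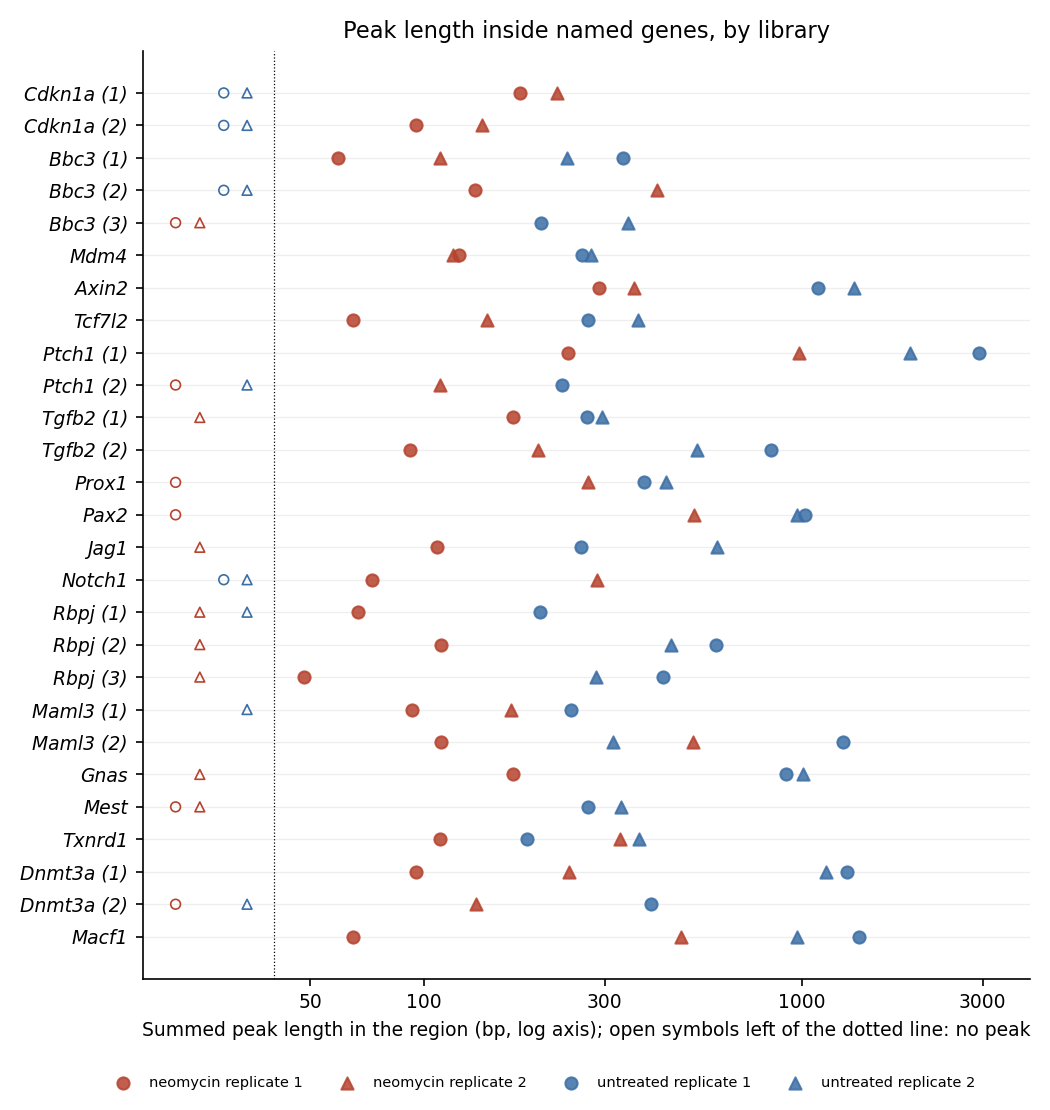
Summed peak length (x axis, bp, log axis) of inner regions in named genes (y axis; numbers in brackets count regions of a gene in genome order), in the neomycin libraries (red) and the untreated libraries (blue), replicate 1 as circles and replicate 2 as triangles; open symbols left of the dotted line mark libraries with no peak. Cdkn1a and Notch1 have peaks with neomycin alone, Mest with untreated alone, and where all 4 libraries have a peak the untreated values are mostly the longer ones, as in 86.8% of all such regions.

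Genes with known alternative promoters were the list with most hosts: 35 of 62 (56.5%) held 59 inner regions, although their median span of 184 kb was far above the 17.3 kb of all genes. None of the 59 was neomycin-only, 18 were untreated-only and 13 were in all 4 libraries, beside 6.46%, 19.6% and 19.7% of all inner regions. Peaks were present at 27 and 32 of the 59 in the neomycin libraries, against 50 and 51 in the untreated libraries, where all inner regions had 57.9% and 56.7% with neomycin, against 87.5% and 70.5% untreated. Dnmt3a, a DNA methyltransferase with a well-known internal promoter, had 95 and 241 bp with neomycin, against 1313 and 1159 bp untreated, over an internal start at chr12:3806521-3807853. Esr1, the oestrogen receptor alpha, had 139 and 174 bp with neomycin, against 615 and 476 bp untreated. Ank2, an adaptor between membrane proteins and the spectrin skeleton, had 1 region with 74 and 178 bp with neomycin, against 292 and 332 bp untreated, and another that was untreated-only with 572 and 297 bp. Dab2ip, a Ras GTPase-activating protein, held 3 regions, of which that in all 4 libraries had 48 and 118 bp with neomycin, against 294 and 289 bp untreated. These 4 genes were named by rank. A few more of the list were named after their values were seen. Macf1, a cytoskeletal cross-linker, had 65 and 477 bp with neomycin, against 1410 and 969 bp untreated, 22.5 kb from the nearest gene end. Shank3, a synaptic scaffold, had 131 and 114 bp with neomycin, against 745 and 521 bp untreated, 17 bp from its start. Nfia, a transcription factor, had 96 and 110 bp with neomycin, against 772 and 1141 bp untreated. These follow the lengths of nearly all regions marked by all 4 libraries, given above. Dst, a spectraplakin, was untreated-only with 417 and 727 bp, and the nearest neomycin peaks were 253 kb away in both libraries. Bdnf, a neurotrophin, had 107 and 163 bp with neomycin, against 831 bp and no peak untreated, beside an internal start.

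Of 18 imprinted genes with internal control regions, 3 (16.7%) held an inner region. Gnas, the gene of the stimulatory G protein alpha subunit, had 172 bp in neomycin replicate 1 and none in replicate 2, against 907 and 1004 bp untreated, over a start 15.6 kb from the gene's ends. Mest, a paternally expressed gene, was untreated-only with 272 and 332 bp, 18 bp from an internal start, and the nearest neomycin peaks were 158 and 336 kb away. Trappc9 was untreated-only as well, with 239 and 424 bp. Among 28 polarity and adhesion genes, 10 (35.7%; median span 68.0 kb) held 14 inner regions, 0 neomycin-only and 5 untreated-only. Nectin3, an adhesion molecule of the contacts between hair cells and supporting cells, had 101 and 720 bp with neomycin, against 918 and 521 bp untreated, which overlap. Fat1, a giant cadherin, held 4 regions, of which that in all 4 libraries had 165 and 119 bp with neomycin, against 577 and 234 bp untreated. Nectin1, the partner of Nectin3, had 48 and 137 bp with neomycin, against 929 and 987 bp untreated. Tjp1, a tight junction scaffold named after its values were seen, was untreated-only with 719 and 326 bp, and the nearest neomycin peaks were 274 kb away in both libraries. Prickle1, a planar cell polarity factor, had 116 and 141 bp with neomycin, against 574 and 478 bp untreated.

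The remaining lists are given together here. Of 55 stress and immediate early genes, 11 (20.0%; median span 6.64 kb) held 15 inner regions, 1 neomycin-only and 4 untreated-only. Txnrd1, thioredoxin reductase, had 110 and 330 bp with neomycin, against 187 and 371 bp untreated, values that overlap. Egr2, a zinc-finger transcription factor, had 200 and 159 bp with neomycin, against 436 and 345 bp untreated. Of 26 genes of the H3K4 methylation machinery, 4 (15.4%) held 5 inner regions. Dpy30, a core subunit of the methyltransferase complexes, had 100 and 306 bp with neomycin, against 395 and 442 bp untreated. Ash2l, another core subunit, had 153 and 221 bp with neomycin, against 416 and 291 bp untreated. Kmt2d, a methyltransferase of the MLL family, had 48 and 243 bp with neomycin, against 1026 bp and no peak untreated. Gpx4, a stress-list enzyme that reduces lipid peroxides, had 88 bp and no peak with neomycin, against 287 and 394 bp untreated. Of 33 neuronal, glial and mesenchymal genes, 4 (12.1%) held 5 inner regions, 0 neomycin-only, and of 18 blood, macrophage and endothelial genes none did.

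Several genes held many inner regions. Gata3 held 8, Nr2f2 held 6, and Gse1, Hivep2, Mxi1, Slit2, Tnrc18 and Zfp993 held 5 each. Nr2f2, a nuclear receptor, had 2 regions in all 4 libraries, with 66 and 145 bp and with 176 and 117 bp with neomycin, against 443 and 342 bp and 710 and 426 bp untreated. In Hivep2, a zinc-finger gene, 4 of the 5 regions lay between 4.22 and 6.31 kb from the nearest gene end and showed 4 different patterns, from all 4 libraries to neomycin-only. Such pieces lie close together, and each counts as a region.

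Sfi1, a centrosomal gene, held 31 inner regions, and most of them stood apart by height. Their shared feature was a pileup of 3 or more times the library's median over inner regions, which 61 of the 2166 reached, 23 of them in Sfi1 and 4 in Tmem267. In these 61 the median pileup was 30 and 52 in the neomycin libraries, against 65 and 51 in the untreated libraries. In the other 2105 it was 7 and 11 with neomycin, against 14 and 11 untreated. The fold enrichment was lower in the 61, with medians of 4.17 and 2.79 with neomycin, against 3.53 and 4.05 untreated. In the other 2105 it was 5.90 and 6.54 with neomycin, against 7.75 and 7.22 untreated. None of the 61 lay within 1 kb of an own start. They included 15 neomycin-only regions, beside 125 among the other 2105, and 4 untreated-only regions, beside 420. The greater height of the 61 follows from the rule that set them apart, and they were less enriched in every library. They were set apart by pileup after the values had been seen.

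A gene other than a protein-coding one ended or began within 1 kb of 314 inner regions (14.5%). The nearest was a long non-coding RNA for 262 of them and a microRNA gene for 20. The region beside Mir34b and Mir34c, at chr9:51103609-51104191 within Btg4 and Hoatz, is shown with its microRNAs because the miR-34 family is a known target of p53. It was untreated-only, with 390 and 553 bp in the untreated libraries, and the nearest neomycin peaks were 26.5 and 26.4 kb away. It overlapped the hairpin of Mir34b and lay 0.499 kb from that of Mir34c. The mature sequences, from RefSeq (build GRCm38.p6), are given 5′ to 3′ with the seed, bases 2 to 8, in capitals.
mmu-miR-34b-5p: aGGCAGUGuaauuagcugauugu
mmu-miR-34b-3p: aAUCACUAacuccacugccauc
mmu-miR-34c-3p: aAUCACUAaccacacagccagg
The seeds of mmu-miR-34b-3p and mmu-miR-34c-3p are the same, and that of mmu-miR-34b-5p differs. Mir148a had a region of mixed pattern 0.554 kb from its hairpin, with no peak in neomycin replicate 1 and 281 bp in replicate 2, against 470 bp and no peak untreated. The 2 microRNA loci thus differed in pattern.

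The X chromosome held 11 inner regions (0.508%), beside 31 gene-end regions (0.321%), while it holds 4.47% of protein-coding genes. One of the 11 lay in Fgf13, an intracellular FGF homologue, over an internal start with 206 and 621 bp in the untreated libraries and no peak in the neomycin libraries. The low share on this chromosome was therefore common to inner regions and gene ends.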

How the data were processed

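Peak lists of 4 H3K4me3 libraries were used, 2 of neomycin-treated and 2 of untreated cells; the input samples were not analysed here. The submitters' processing notes name CASAVA 1.4, Bowtie2, MACS2 and deepTools and the build mm10; no source used here gives their roles or settings. Each deposited list, per the file headers, gives for each peak its position and length, its pileup (signal), its fold enrichment (a ratio), and the −log10 of its p-value and q-value. Each list belongs to 1 library, per the labels. Read depth is unknown, so no value was scaled by it.

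Peaks on chromosomes 1 to 19 and X were merged and placed against RefSeq genes (GRCm38.p6, the same assembly as mm10) with Python 3.11.15, numpy 2.4.6, pandas 2.3.3 and scipy 1.17.1; figures used matplotlib 3.10.9. Merging and placing were tested on simulated data. No genome was used, so the planned sequence around peak summits was replaced by RefSeq windows of 250 bases before and 50 bases after each start, which hold none on chromosome 18. The log2 of the summed peak length per region, computed from the deposited lengths, was tested with limma 3.58.1 (R 4.3.3) after centring on each library's median, with Benjamini-Hochberg adjustment over all regions with a peak in all 4 libraries. Single values were tested by exact permutation over libraries. The planned test of the share of peaks in inner regions is not given, because the regions were chosen on those peaks.

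The genes named are a set of key genes, up to 4 genes of each list (those marked in most libraries first), the 10 regions of each pattern ranked by the percentile of their q-value within each list, and the 8 genes with most inner regions. Isolated regions at own starts, own-start rankings and regions of very high pileup were added after the values were seen, as were single genes so described in the text. Of these sets, those the results turn on are printed. Some listed genes are not reported here. Members and gene lists were chosen with earlier results of these data known. Alternatives changed the distance limit, the number of lists, the q threshold, the list lengths, bridging of gaps, the genes whose ends were avoided and the libraries used.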

Additional observations from a re-analysis of the deposited data

How the results depend on the processing

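The count of neomycin-only inner regions was 140. It was 83 with a distance limit of 2.5 kb, 0 with a −log10 q of at least 10 and 90 with gaps of up to 0.5 kb bridged, and 186 to 295 with 1 untreated library left out. The untreated-only count was 424. Under the same 3 alternatives it was 264, 215 and 265, and it was 695 to 717 with 1 neomycin library left out. Leaving out a library of the group that defines a pattern, or asking for peaks in 3 lists, allows no such region and gives no value. Untreated-only regions outnumbered neomycin-only regions under every alternative that gives both counts. No alternative with 1 library left out gives both, so the weight of single libraries on this order was not tested. With a −log10 q of at least 10, 215 of the 231 inner regions left were untreated-only. The peak length difference between inner regions and gene ends, -3 bp, turned to 1 bp with 2.5 kb, 3.5 bp with 3 lists, 0.875 bp with a −log10 q of at least 10 and 2.5 bp with lists of equal length, and it ran from -3.33 to 2.67 bp with 1 library left out. The difference in the share of peaks in inner regions, -2.35 percentage points, ran from -3.22 to 1.57 points with 1 library left out. Limma called 0 of the 426 inner regions different in length, 182 without centring and 0 to 63 with 1 library left out. The causes were not tested. With the replicate number as a block limma called 0, and the block changed no other call. Deviations of same-numbered libraries correlated at -0.03, so no pairing by number was seen in the lengths. This value cannot tell whether same-numbered libraries shared a culture. The number of inner regions, 2166, fell to 1301 with 2.5 kb, 1148 with 3 lists, 231 with a −log10 q of at least 10 and 1432 without untreated replicate 1. Alternatives run on the length and share differences other than the q threshold and equal lists for length, and those without regions of very high pileup, were chosen after seeing the data. Depth is unknown, and the shortest peak of each list limits the lengths that can be seen.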
